A study of Mus musculus with 8 samples.

Results

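This account covers 10 genes, 8 of them for transcription factors and 2 for corepressors that thymocytes switch on when their T cell receptor (TCR) signals: Egr1, Egr2, Egr3, Nr4a1, Nr4a2, Nr4a3, Nab1, Nab2, Fos and Junb. They were taken by symbol, and all 10 were found among the 23278 genes listed in each of 4 tables. RNA was sequenced from sorted GFP+ CD4+CD8+ thymocytes of C57BL/6 mice in 4 groups of 2 libraries: Hdac3KO DP2, WT DP2, Hdac3KO DP1 and WT DP1. Hdac3KO cells came from animals with floxed Hdac3 alleles (Hdac3F/F) and Cre under LCK, and WT cells from Hdac3+/+ animals. The series text does not say whether the WT animals also carried LCK-Cre. LCK is active in developing T cells, and how early and how completely Hdac3 was deleted was not tested. DP2 cells had high surface CD5 and intermediate TCRβ, and DP1 cells had low levels of both. The age and the sex of the animals are not among the labels, and libraries were made from RNA pools.

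The Egr genes encode zinc finger transcription factors that are induced within minutes of a TCR signal, through ERK and the serum response factor, and they are needed for efficient positive selection. The Nr4a genes encode orphan nuclear receptors whose transcription follows the strength of the TCR signal and which take part in the deletion of strongly self-reactive thymocytes. Nab1 and Nab2 bind EGR proteins and dampen their activity, and Nab2 is itself induced with them. Fos and Junb encode subunits of the AP-1 factor. Hdac3 encodes the deacetylase through which the corepressors NCoR and SMRT remove acetyl groups from histones.

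RefSeq promoters (GRCm38.p6, the assembly of mm10) were used for 8 of the 10 genes. Those of Egr1 and Egr3 were not searched, so the counts of elements below say nothing about these genes. The stretches below are shown so that the elements just before the starts of induced genes can be read beside their values. Each runs 5′ to 3′ along the gene. Capitals mark TGACG on either strand (the core of the cAMP response element, CRE), the CArG box (the binding site of the serum response factor) and GCGNGGGCG on either strand (an EGR site). Nr4a1 is chr15:101266596-101266845 (plus strand), Nr4a2 is chr2:57124004-57124253 (minus strand), Nr4a3 is chr4:48045055-48045152 (plus strand, 98 bases that end where an annotated exon begins, so that the match at -147 lies outside), Egr2 is chr10:67537619-67537868 (plus strand) and Fos is chr12:85473640-85473889 (plus strand).
Nr4a1: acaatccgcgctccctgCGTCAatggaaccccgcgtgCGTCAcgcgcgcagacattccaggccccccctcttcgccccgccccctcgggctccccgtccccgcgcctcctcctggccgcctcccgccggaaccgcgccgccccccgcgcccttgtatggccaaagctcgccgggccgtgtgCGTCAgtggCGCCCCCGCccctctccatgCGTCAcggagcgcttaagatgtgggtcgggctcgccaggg
Nr4a2: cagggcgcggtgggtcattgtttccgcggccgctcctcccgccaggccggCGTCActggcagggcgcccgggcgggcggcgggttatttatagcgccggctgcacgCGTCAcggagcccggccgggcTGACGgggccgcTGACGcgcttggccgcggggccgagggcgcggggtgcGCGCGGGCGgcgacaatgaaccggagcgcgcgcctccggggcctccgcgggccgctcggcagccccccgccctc
Nr4a3: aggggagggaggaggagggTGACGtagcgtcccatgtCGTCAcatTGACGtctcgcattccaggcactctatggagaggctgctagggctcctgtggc
Egr2: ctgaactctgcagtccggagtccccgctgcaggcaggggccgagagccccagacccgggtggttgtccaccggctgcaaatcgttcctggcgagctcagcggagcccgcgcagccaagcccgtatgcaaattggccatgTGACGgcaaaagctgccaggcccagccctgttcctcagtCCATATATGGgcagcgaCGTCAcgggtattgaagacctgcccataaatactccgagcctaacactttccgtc
Fos: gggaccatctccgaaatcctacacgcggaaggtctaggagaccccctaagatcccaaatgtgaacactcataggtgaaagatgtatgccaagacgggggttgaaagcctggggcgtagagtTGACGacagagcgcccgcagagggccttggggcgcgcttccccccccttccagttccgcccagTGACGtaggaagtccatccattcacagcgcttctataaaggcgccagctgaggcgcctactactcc

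The CRE core is the element that these windows have most often. In the 250 bases before the start, Nr4a1, Nr4a2 and Nr4a3 each held 4 matches to TGACG, and 0.137% of the 32851 promoters in the table held 4 or more. Egr2 and Fos held 2, Nab1 and Junb held 1 and Nab2 held none. In all, 7 of the 8 windows had at least 1 match, against 17.8% of all promoters and 27.1% of the 9178 promoters with at least 60% GC. The whole palindrome TGACGTCA was in none of the 8 windows and in 1.55% of all promoters. Only the window of Egr2 among the 8 held a CArG box, at 72 to 63 bases before the start (-72 to -63), and 1.47% of all promoters held one. Sequence farther than 250 bases from the start was not searched, so a gene without a match here, such as Fos, may have a CArG box there. The EGR site was present once in Nr4a1 and Nr4a2 and 3 times in Nab1, at -141, -109 and -38, and 4.70% of all promoters had at least 1. None of the 8 windows held the NR4A monomer site AAAGGTCA or the AP-1 site TGANTCA, which were in 1.34% and 6.75% of all promoters. No marked match overlapped another. The RefSeq start of Nr4a3 lies 5943 bases from the start given in the files, and 152 bases of its window, 231 of that of Nab1 and 60 of that of Nab2 are annotated as exon. GC content of the windows was 58.4% to 80.8%, against a median of 52.4% for all promoters, and motifs rich in C and G occur more often in such sequence.

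**Figure D1:**
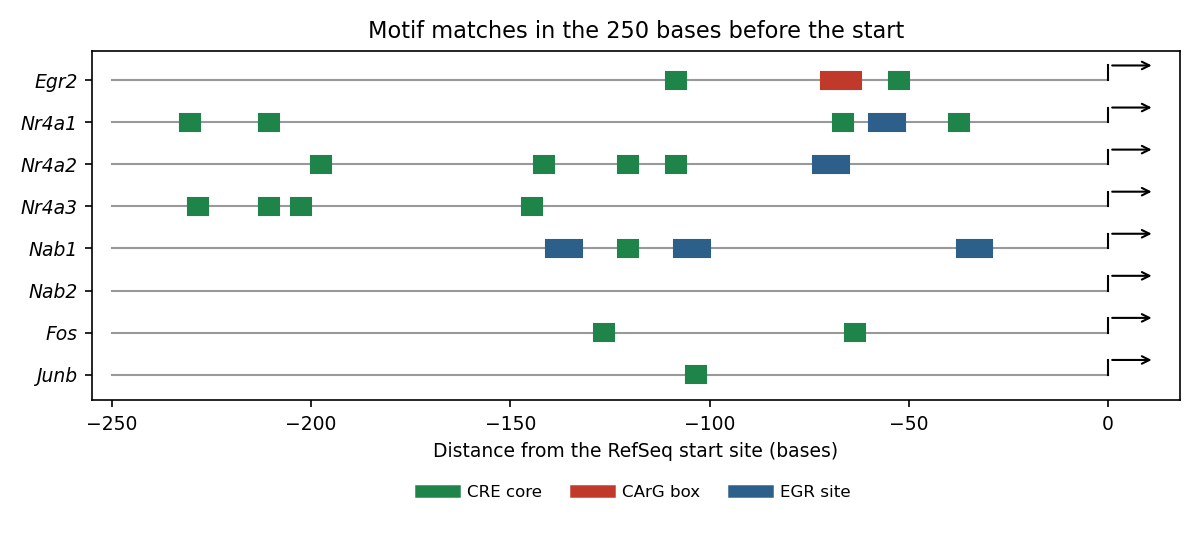
Matches to the CRE core, the CArG box and the EGR site in the 250 bases before the RefSeq start of 8 genes, with the distance from the start in bases on the x axis and an arrow at each start. Within these windows the Nr4a genes have 4 CRE cores each, Egr2 alone has a CArG box, and Nab1 has 3 EGR sites. Sequence outside the windows was not searched.

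The genes are compact or of middling length and lie on autosomes. In the GENCODE M21 annotation of mm10, Egr1 spans chromosome 18 from 34859823 to 34864984, Egr2 chromosome 10 from 67535475 to 67542188 and Egr3 chromosome 14 from 70077203 to 70082614, all on the plus strand, and the longest transcript of each has 2 exons. Nr4a1 lies on chromosome 15 from 101254269 to 101274795 (plus strand), Nr4a2 on chromosome 2 from 57106830 to 57124003 (minus strand) and Nr4a3 on chromosome 4 from 48045153 to 48086447 (plus strand), each with 8 exons. Nab1 lies on chromosome 1 from 52457294 to 52500679 and Nab2 on chromosome 10 from 127660918 to 127668568, both on the minus strand. Fos lies on chromosome 12 from 85473890 to 85477273 (plus strand) and Junb, which has a single exon, on chromosome 8 from 84974484 to 84978718 (minus strand). The spans of Fos and Junb are 3384 and 4235 bases, while the median span of 9483 tested genes is 21849 bases. Nab1 is the longest at 43386 bases. Nab2 shares 40 exonic bases with Stat6, which runs toward it on the other strand, and the files place both genes in a single interval. The strand setting of the authors' counting is not given in the sources used here, so a Nab2 value may hold reads of Stat6.

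The values are 1 FPKM (fragments scaled by library size and by the length of the transcript) per gene and group, so levels can be set beside each other between genes but no spread between libraries can be computed. Each deposited p and q was taken from the authors' deposited tables. They measure no more than how far these libraries differ among themselves, which may be technical. A gene passed at a deposited q of 0.05 or less. Where a value was recomputed here, q is the normal p after Benjamini-Hochberg adjustment over all tested genes. Standard errors (SE) were worked back from the deposited p, whose smallest value is 5e-05, and at that value the true SE may be smaller. Depth per library is unknown. Each table was scaled on its own, and the median log2 change of genes with at least 10 FPKM was 0.12 for Hdac3KO over WT in DP2, -0.11 in DP1, -0.01 for DP2 over DP1 in Hdac3KO and -0.33 in WT. Hdac3 had 15.4 FPKM in Hdac3KO DP2, against 29.7 in WT DP2, and 11.7 in Hdac3KO DP1, against 38.1 in WT DP1, in the authors' deposited tables, or 51.9% and 30.7% of WT. A value per gene does not show which exons these reads came from. Xist was at 139 and 208 FPKM in the Hdac3KO groups, DP2 and DP1, against 0.243 and 0.0945 in the WT groups, and the Y-linked Kdm5d was at 0.322 and 0.264, against 34.6 and 20.01, in the authors' deposited tables. The animals therefore differed in sex between the genotypes, and genotype and sex cannot be told apart in any comparison of Hdac3KO with WT. Of 10 markers of double-positive cells all 10 were detected in each group, with a summed level of 3173 to 6679 FPKM. B cell markers summed to 6.95 to 9.49 FPKM, myeloid markers to 8.15 to 24.996, NK and γδ T markers to 1.54 to 4.14 and erythroid markers to 1.32 to 3.47, with S100a8 at 0 in all 4 groups. Double-negative stage markers summed to 39.3 to 229 FPKM, where Hhex made up 221 FPKM in WT DP2. These markers were called in both directions in the authors' deposited tables. In Hdac3KO DP2, Il2ra (26.3 FPKM, against 4.41 in WT DP2) and Notch3 (4.08, against 1.51) were higher. Hhex alone was lower there (21.3, against 221). In Hdac3KO DP1, Il2ra was higher (19.6 FPKM, against 3.49 in WT DP1) and Hhex lower (8.53, against 47.8). Stromal markers summed to 49.999 to 58.8 FPKM. Myeloid markers were at 24.996 FPKM in Hdac3KO DP2, against 17.8 in WT DP2, and at 15.03 in Hdac3KO DP1, against 8.15 in WT DP1. Of 10 myeloid markers only 3 were tested in DP2 and 2 in DP1, and of these Itgam alone passed. Itgam was at 15.7 FPKM in Hdac3KO DP2, against 1.60 in WT DP2, and at 9.58 in Hdac3KO DP1, against 2.403 in WT DP1, in the authors' deposited tables. Cd74 and H2-Aa had lower values in Hdac3KO, at 2.15 and 0.369 FPKM in Hdac3KO DP2, against 6.68 and 2.1003 in WT DP2, and did not pass or were not tested in the authors' deposited table. S100a9 was at 0 in both Hdac3KO groups. The part of these markers in the results was not tested.

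**Figure D2:**
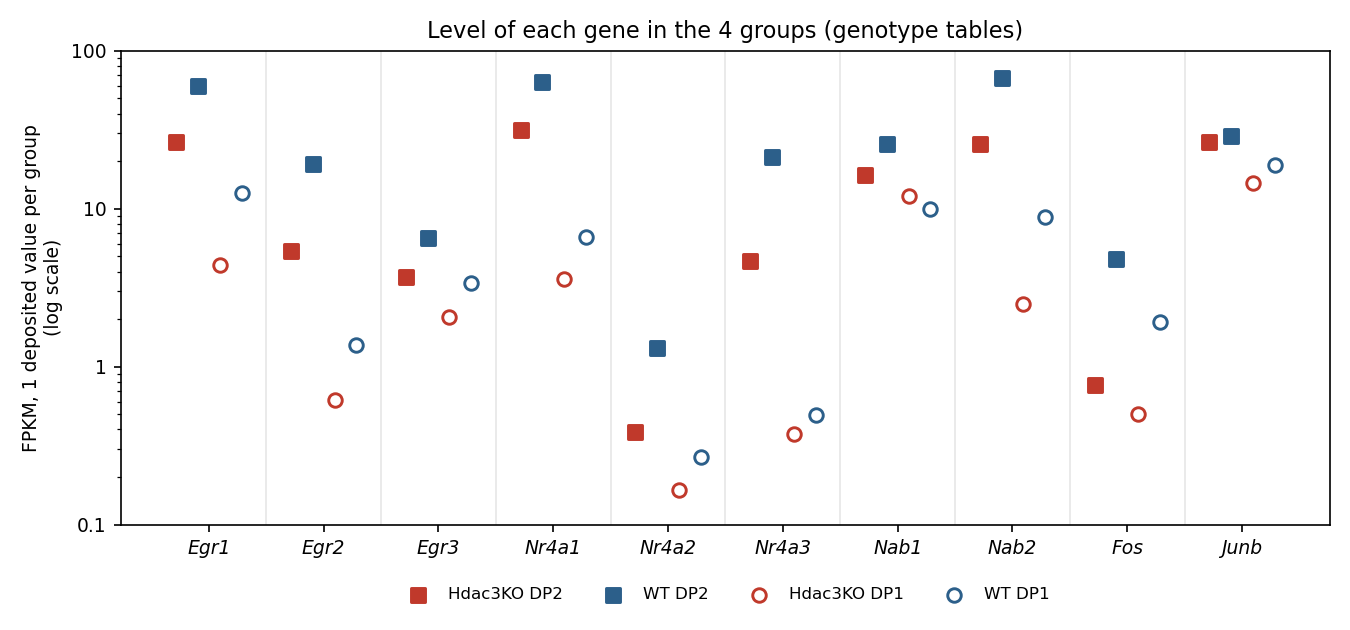
FPKM of the 10 genes on a log axis, with 1 deposited value per group from the genotype tables, so DP2 and DP1 values come from tables scaled separately. WT DP2 is the highest group for all 10 genes, and Hdac3KO DP1 is the lowest for all but Nab1.

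Most of the set was higher in DP2 than in DP1, and 4 genes rose in both genotypes. In Hdac3KO 5 of the 10 genes rose and none fell in the authors' deposited table, where 1.78% of 10231 tested genes were higher and 4.65% lower, and 2 genes were too low to be tested. In WT 7 of 10 rose and none fell in the authors' deposited table, where 5.56% of 10851 tested genes were higher and 16.8% lower. Egr1, Egr2, Nr4a1 and Nab2 passed in both genotypes. With a normal p of the deposited statistic, in place of the deposited p, Nab2 did not pass in Hdac3KO (q = 0.384). All 10 values lay above 0 in each genotype, with a median log2 change over the tested members of 2.72 in Hdac3KO and 2.04 in WT, while the median of all tested genes was 0.01 and -0.27. In bulk RNA, more cells that express a gene and more RNA per cell cannot be told apart. The sort itself parted the stages by CD5 and TCRβ, and the surface level of CD5 follows TCR signals.

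Of the Egr genes, Egr2 and Egr1 rose in both genotypes. Egr2 had 4.86 FPKM in Hdac3KO DP2, against 0.611 in Hdac3KO DP1, in the authors' deposited table, or 2.99 ± 0.74 on the log2 scale (SE, 2 libraries a group) with q = 0.00151. In WT the same gene had 18.4 FPKM in DP2, against 1.55 in DP1, 3.57 ± 0.88 (q = 0.000835 in the authors' deposited table), an 11.8-fold difference. These changes rest on low FPKM in DP1, and with a pseudocount of 1 that of Egr2 in Hdac3KO was 1.86. Egr1 had a higher level in DP1, and its changes were smaller in value. Whether its changes differ from those of Egr2 was not tested. The SE of both genes here come from the smallest deposited p, so they grow with the change itself. Egr1 had 23.8 FPKM in Hdac3KO DP2, against 4.39 in Hdac3KO DP1, in the authors' deposited table (2.44 ± 0.60, q = 0.00151). In WT, Egr1 was at 57.2 FPKM in DP2, against 14.3 in DP1, with a change of 2.01 ± 0.49 (q = 0.000835 in the authors' deposited table). Egr3 did not pass in either genotype: it was at 3.36 FPKM in Hdac3KO DP2, against 2.05 in Hdac3KO DP1 (q = 0.433), and at 6.21 in WT DP2, against 3.84 in WT DP1 (q = 0.220), in the authors' deposited tables.

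Among the nuclear receptors, Nr4a1 had the highest level and Nr4a3 the largest change. Nr4a1, also called Nur77, had 28.4 FPKM in Hdac3KO DP2, against 3.56 in Hdac3KO DP1, in the authors' deposited table (2.99 ± 0.74, q = 0.00151). WT cells gave nearly the same fold from a higher base, with 59.8 FPKM in DP2, against 7.58 in DP1 (2.98 ± 0.73, q = 0.000835 in the authors' deposited table). These folds were 7.97 in Hdac3KO and 7.89 in WT. Nr4a3, which acts with Nr4a1 in deletion, had 4.22 FPKM in Hdac3KO DP2, against 0.368 in Hdac3KO DP1, a rise short of the threshold (3.52 ± 1.30, q = 0.0885 in the authors' deposited table). This call depended on the method. Nr4a3 passed in Hdac3KO with p adjusted over the 4 tables together (q = 0.0465) and with the normal p of the deposited statistic (q = 0.0182). In WT it rose 35.7-fold, to 20.2 FPKM in DP2, against 0.564 in DP1 (5.16 ± 1.27, q = 0.000835 in the authors' deposited table). This fold rests on a low FPKM in DP1, and with a pseudocount of 1 the log2 change of Nr4a3 in WT was 3.76. Nr4a2 stayed low in every group. Its 0.351 FPKM in Hdac3KO DP2, against 0.166 in Hdac3KO DP1, was not tested, and in WT it rose to 1.26 FPKM in DP2, against 0.302 in DP1 (2.07 ± 0.66, q = 0.0142), in the authors' deposited tables. With the normal p of the deposited statistic, Nr4a2 did not pass in WT (q = 0.135).

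Of the corepressors and the AP-1 subunits, Nab2 alone passed in both genotypes at the deposited q. Nab2 rose to 23.2 FPKM in Hdac3KO DP2, against 2.47 in Hdac3KO DP1 (3.23 ± 0.95, q = 0.0147), and to 63.7 in WT DP2, against 10.1 in WT DP1 (2.65 ± 0.85, q = 0.0139), in the authors' deposited tables. Its neighbour Stat6 did not pass in either (q = 0.124 and 0.983 in the authors' deposited tables). With the normal p of the deposited statistic, Nab2 itself did not pass in Hdac3KO (q = 0.384). Nab1 rose in WT, to 24.7 FPKM in DP2, against 11.2 in DP1 (1.14 ± 0.31, q = 0.00311 in the authors' deposited table). In Hdac3KO it was at 14.8 FPKM in DP2, against 12.1 in DP1, which was not called (0.29 ± 0.22, q = 0.603 in the authors' deposited table). Junb rose in Hdac3KO, to 23.9 FPKM in DP2, against 14.4 in DP1 (0.73 ± 0.23, q = 0.0344), and did not pass in WT, at 27.1 FPKM in DP2, against 21.7 in DP1 (q = 0.456), in the authors' deposited tables. Once the trend with transcript length was removed, Junb did not pass in Hdac3KO (0.69, q = 0.0513), and in WT it then passed (0.91, q = 0.0221). Junb also did not pass in Hdac3KO with the normal p of the deposited statistic (q = 0.704). Fos was at 0.693 FPKM in Hdac3KO DP2, against 0.500 in Hdac3KO DP1, too low to be tested, and at 4.596 in WT DP2, against 2.20 in WT DP1 (1.07 ± 0.49, q = 0.0989), in the authors' deposited tables. Relative to the median gene, Fos passed in WT (1.39, q = 0.0309).

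**Figure D3:**
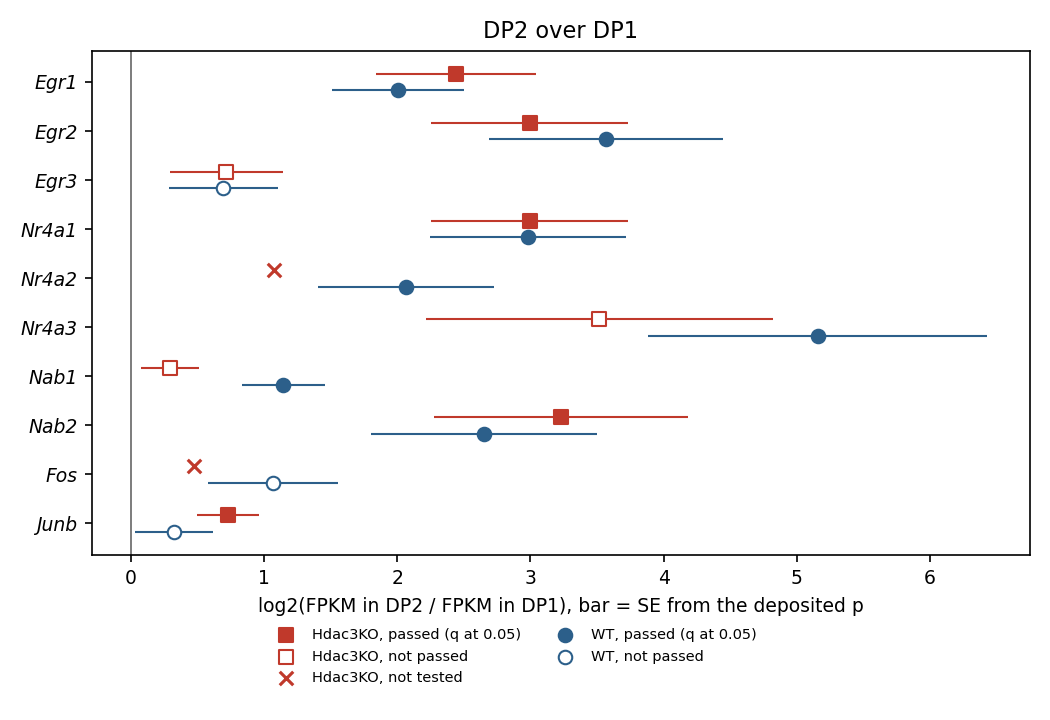
Log2 change of DP2 over DP1 for each gene, Hdac3KO above WT, with SE bars from the deposited p, filled symbols for genes that passed and crosses for genes not tested. All values lie above 0, and Nr4a3 in WT has the largest change, 5.16.

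Most of the set was called lower in Hdac3KO DP2 than in WT DP2. In Hdac3KO DP2 6 of the 10 genes fell and none rose in the authors' deposited table, where 4.32% of 10674 tested genes were lower and 6.44% higher. All 10 values lay below 0, with a median log2 change of -1.30, while the median of all tested genes was 0.10. The genes that fell were Egr1, Egr2, Nr4a1, Nr4a3, Nab2 and Fos, and the 4 that did not pass were Egr3, Nr4a2, Nab1 and Junb. By a normal p of the deposited statistic, in place of the deposited p, 3 of the 10 passed.

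Each of these 6 genes was at most at the level of 49.6% of WT in Hdac3KO DP2. Fos had the lowest share, with 0.766 FPKM in Hdac3KO DP2, against 4.83 in WT DP2, 15.9% of WT (-2.66 ± 0.80, q = 0.0136 in the authors' deposited table). This share rests on a low FPKM, and with a pseudocount of 1 the change of Fos was -1.72. Nr4a3 was at 4.66 FPKM in Hdac3KO DP2, against 21.3 in WT DP2, 21.8% of WT (-2.19 ± 0.54, q = 0.00134 in the authors' deposited table). Egr2 had 5.36 FPKM in Hdac3KO DP2, against 19.3 in WT DP2, 27.8% of WT (-1.85 ± 0.46, q = 0.00134 in the authors' deposited table). In these 3 genes at most 27.8% of the WT level was left. Nab2 had 25.6 FPKM in Hdac3KO DP2, against 67.4 in WT DP2 (-1.40 ± 0.41, q = 0.0120 in the authors' deposited table). Egr1 had 26.3 FPKM in Hdac3KO DP2, against 60.2 in WT DP2 (-1.20 ± 0.29, q = 0.00134 in the authors' deposited table). Nr4a1 had 31.3 FPKM in Hdac3KO DP2, against 63.1 in WT DP2 (-1.01 ± 0.25, q = 0.00134 in the authors' deposited table). By the normal p of the deposited statistic, Egr1, Nr4a1 and Nab2 did not pass (q = 0.120, 0.227 and 0.557).

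The 4 genes that did not pass in DP2 spanned a wide range of changes. Nr4a2 was at 0.388 FPKM in Hdac3KO DP2, against 1.32 in WT DP2, with a wide error (-1.77 ± 0.73, q = 0.0995 in the authors' deposited table). Nab1 was at 16.3 FPKM in Hdac3KO DP2, against 25.7 in WT DP2 (-0.66 ± 0.24, q = 0.0588 in the authors' deposited table), and it passed relative to the median gene (-0.77, q = 0.0206). Egr3 was at 3.71 FPKM in Hdac3KO DP2, against 6.54 in WT DP2 (q = 0.249 in the authors' deposited table). Junb differed least, at 26.4 FPKM in Hdac3KO DP2, against 28.7 in WT DP2 (-0.12 ± 0.25, q = 0.834 in the authors' deposited table).

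In DP1, the stage with low CD5 and TCRβ, 3 of the 10 genes were already lower in Hdac3KO. Egr1, Nr4a1 and Fos fell and none rose in the authors' deposited table, where 12.9% of 10511 tested genes were lower and 10.7% higher, and Nr4a2 and Nr4a3 were too low to be tested. The median log2 change of the 8 tested members was -1.02, while the median of all tested genes was -0.10. Egr1 had 4.41 FPKM in Hdac3KO DP1, against 12.5 in WT DP1 (-1.502 ± 0.37, q = 0.000879 in the authors' deposited table). Fos had 0.498 FPKM in Hdac3KO DP1, against 1.91 in WT DP1 (-1.94 ± 0.59, q = 0.00833 in the authors' deposited table). Nr4a1 had 3.57 FPKM in Hdac3KO DP1, against 6.63 in WT DP1 (-0.89 ± 0.31, q = 0.0210 in the authors' deposited table), and it no longer passed once the trend with transcript length was removed (-0.63, q = 0.152). By the normal p of the deposited statistic, Egr1 alone of the 3 passed.

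The other members in DP1 lay between -1.84 and 0.28 on the log2 scale. Nab2 was at 2.48 FPKM in Hdac3KO DP1, against 8.86 in WT DP1, a large difference with an error to match (-1.84 ± 0.98, q = 0.162 in the authors' deposited table). Egr2 was at 0.613 FPKM in Hdac3KO DP1, against 1.36 in WT DP1 (-1.15 ± 0.48, q = 0.0615 in the authors' deposited table). At these low levels a pseudocount of 1 brought its change to -0.55. Egr3 was at 2.05 FPKM in Hdac3KO DP1, against 3.36 in WT DP1 (q = 0.167 in the authors' deposited table). Nab1 was the 1 member with a higher value in the knockout, at 12.1 FPKM in Hdac3KO DP1, against 9.93 in WT DP1 (0.28 ± 0.26, q = 0.454 in the authors' deposited table). Junb was at 14.6 FPKM in Hdac3KO DP1, against 18.9 in WT DP1 (-0.38 ± 0.27, q = 0.324 in the authors' deposited table), and its sign turned with the length trend removed (0.045). Nr4a2 was at 0.167 FPKM in Hdac3KO DP1, against 0.267 in WT DP1, and Nr4a3 at 0.373, against 0.493, in the authors' deposited table.

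**Figure D4:**
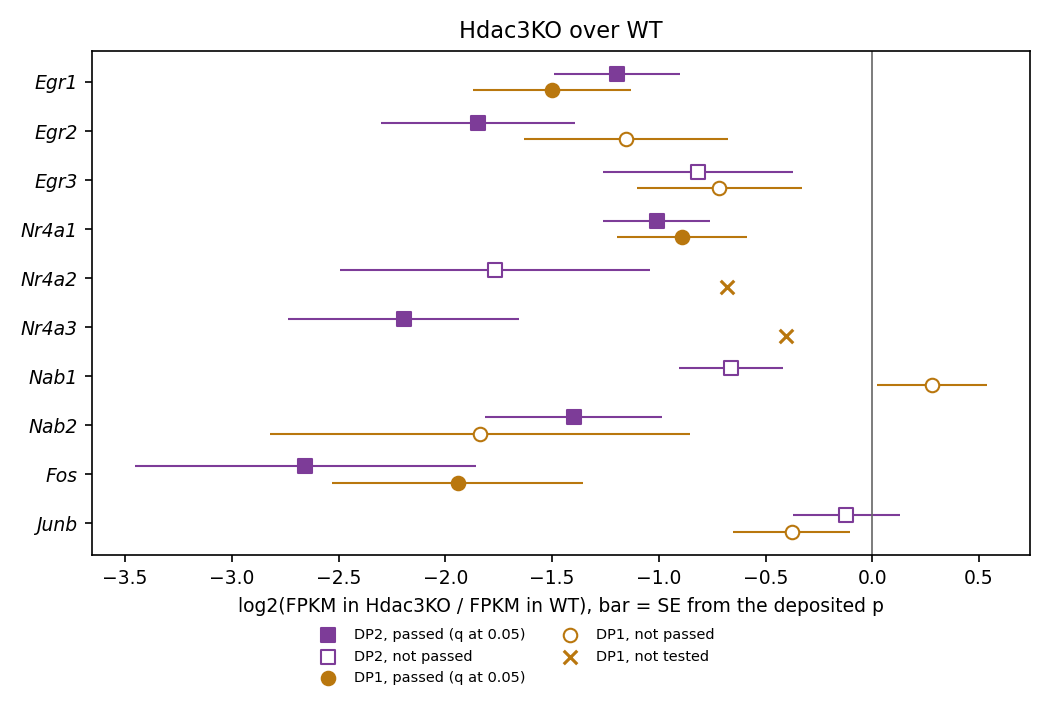
Log2 change of Hdac3KO over WT for each gene, DP2 above DP1, with SE bars from the deposited p, filled symbols for genes that passed and crosses for genes not tested. In DP2 all 10 values lie below 0, from -2.66 for Fos to -0.12 for Junb, and in DP1 Nab1 alone lies above 0.

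Whether the difference between Hdac3KO and WT was unequal in DP2 and DP1 was tested for 8 members, as the difference of the log2 changes with a normal p, two-sided, adjusted over the 10144 genes tested in both genotype tables. None of the 8 passed (1 had an unadjusted p under 0.05), where 2.08% of all genes did. Nab1 came nearest, with a difference of -0.94 ± 0.35 (q = 0.119), and it passed with each table centred on its median gene (-1.17, q = 0.0351). The stage tables use the same libraries, and there the difference of Nab1 was -0.85 ± 0.38 (q = 0.167), none of 8 members passed (1 had an unadjusted p under 0.05) and 3.13% of 9969 genes did. For Nr4a1 the difference was -0.12 ± 0.39, with a 95% interval of -0.89 to 0.65, and for Egr1 it was 0.31 ± 0.47, with an interval of -0.62 to 1.23. For Egr2 it was -0.69 ± 0.66 (-1.98 to 0.60) and for Fos -0.71 ± 0.99 (-2.66 to 1.23). For Egr3 it was -0.10 ± 0.59 (-1.26 to 1.05) and for Nab2 0.44 ± 1.07 (-1.65 to 2.53). Of the 8 intervals, those of Nr4a1 and Junb alone stayed within 1 on the log2 scale in both directions. The SE of Egr1 in both stages and of Egr2 and Nr4a1 in DP2 come from the smallest deposited p. The true SE may be smaller there, so these intervals may be too wide and the test may miss a difference. Nr4a3 could be tested from the stage tables only, where the rise in Hdac3KO less that in WT was -1.64 ± 1.82 (q = 0.629). The SE of its rise in WT has the same limit.

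The order of levels over the groups was the same for 9 of the 10 genes at its ends, with WT DP2 highest and Hdac3KO DP1 lowest. The exception was Nab1, which was lowest in WT DP1. In the genotype tables the Hdac3KO DP2 value lay above the WT DP1 value for 9 genes, at 26.3 and 12.5 FPKM for Egr1 and 31.3 and 6.63 for Nr4a1 in the authors' deposited tables. Fos was the exception there, with 0.766 FPKM in Hdac3KO DP2 and 1.91 in WT DP1 in the authors' deposited tables. In the stage tables Egr3 also turned, with 3.36 FPKM in Hdac3KO DP2 and 3.84 in WT DP1, so that 8 genes kept this order. These groups share no table, so their difference was not tested. Several neighbours in the order of the genotype tables were compared and did not pass. They were Hdac3KO and WT DP1 for Egr2, Egr3, Nab1, Nab2 and Junb, Hdac3KO and WT DP2 for Egr3, Nr4a2, Nab1 and Junb, DP2 and DP1 in Hdac3KO for Nab1, and DP2 and DP1 in WT for Fos.

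Other immediate early genes were called in both directions. From a list of 28, 19 were tested in each genotype comparison. In Hdac3KO DP2 5 were higher and 1 lower, where 6.44% and 4.32% of all tested genes were, with a median of 0.05. In Hdac3KO DP1 5 were higher and 2 lower, where 10.7% and 12.9% of all tested genes were, with a median of 0.27. Jun, the partner of FOS in AP-1, fell in both, with 6.03 FPKM in Hdac3KO DP2, against 21.1 in WT DP2 (q = 0.00134), and 6.02 in Hdac3KO DP1, against 27.5 in WT DP1 (q = 0.000879), in the authors' deposited tables. Tnf, a cytokine gene, rose to 12.5 FPKM in Hdac3KO DP2, against 3.11 in WT DP2 (2.004 ± 0.52, q = 0.00245 in the authors' deposited table). Dusp5, a phosphatase gene induced by ERK signals, rose to 99.8 FPKM in Hdac3KO DP2, against 41.1 in WT DP2 (1.28 ± 0.32, q = 0.00134 in the authors' deposited table), and Zfp36, which encodes an mRNA decay factor, rose to 45.9 FPKM, against 20.8. In DP1 Tnf and Dusp5 rose as well and Myc fell, to 2.08 FPKM in Hdac3KO DP1, against 5.70 in WT DP1 (q = 0.000879 in the authors' deposited table). Dusp2 and Btg1 did not pass in DP2, at 31.2 and 142 FPKM in Hdac3KO DP2, against 30.6 and 88.5 in WT DP2, in the authors' deposited table.

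Lists of upstream regulators were counted against the shares of all tested genes, which were 6.44% higher and 4.32% lower in Hdac3KO DP2 and 10.7% higher and 12.9% lower in Hdac3KO DP1. Of 8 genes for the serum response factor, its cofactors and CREB factors, none passed in Hdac3KO DP2 (median 0.07), and 2 were higher and none lower in Hdac3KO DP1 (median 0.43). The 2 were Elk4, at 118 FPKM in Hdac3KO DP1, against 66.4 in WT DP1, and Elk3, at 20.2, against 11.7 (q = 0.0114 and 0.0140 in the authors' deposited table), which encode ternary complex factors. Of 13 tested genes for MEF2, calcineurin, NFAT and class IIa deacetylases, which control Nr4a1 through MEF2 sites, 5 were higher and none lower in Hdac3KO DP2 (median 0.65). In Hdac3KO DP1 6 were higher and none lower (median 0.56). Hdac7, a deacetylase that represses Nr4a1 in thymocytes, rose to 224 FPKM in Hdac3KO DP2, against 105 in WT DP2 (1.09 ± 0.29, q = 0.00338 in the authors' deposited table), and did not pass in DP1 (q = 0.452). Mef2d, which encodes the factor that HDAC7 binds, rose to 66.3 FPKM in Hdac3KO DP2, against 26.0 in WT DP2 (1.35 ± 0.33, q = 0.00134), and to 62.7 in Hdac3KO DP1, against 37.0 in WT DP1 (q = 0.0191), in the authors' deposited tables. Nfatc2 rose to 12.4 FPKM in Hdac3KO DP2, against 5.56 in WT DP2 (q = 0.00134 in the authors' deposited table). Nfatc3, the most abundant NFAT gene of the list, did not pass, at 159 FPKM in Hdac3KO DP2, against 125 in WT DP2 (q = 0.422 in the authors' deposited table).

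Selection genes downstream of TCR signals were called lower more often than higher in DP2. Of 17 tested, 8 were lower and 1 higher in Hdac3KO DP2, with a median of -0.76, where 4.32% of all tested genes were lower and 6.44% higher. Of 14 tested in DP1, 4 were lower and 2 higher, with a median of -0.10, where 12.9% of all tested genes were lower and 10.7% higher. Id3, an inhibitor of E proteins and a target of EGR1, fell to 19.9 FPKM in Hdac3KO DP2, against 39.0 in WT DP2 (-0.97 ± 0.30, q = 0.0163), and to 9.04 in Hdac3KO DP1, against 29.9 in WT DP1 (-1.73 ± 0.43, q = 0.000879), in the authors' deposited tables. Pdcd1, the gene of PD-1, was at 1.32 FPKM in Hdac3KO DP2, against 20.7 in WT DP2 (-3.97 ± 0.98, q = 0.00134 in the authors' deposited table). Tnfrsf9, a costimulatory receptor gene, was at 0.660 FPKM in Hdac3KO DP2, against 3.84 in WT DP2 (q = 0.0217 in the authors' deposited table). Cd5 and Cd69, surface markers of TCR signalling, did not pass in DP2, Cd5 at 232 FPKM in Hdac3KO DP2, against 274 in WT DP2 (q = 0.612), and Cd69 at 113, against 156 (q = 0.224), in the authors' deposited table. Itm2a, a membrane protein gene induced in selection, fell to 84.0 FPKM in Hdac3KO DP2, against 360.2 in WT DP2, and Il7r, the IL-7 receptor gene, to 0.653, against 10.2 (q = 0.00134 and 0.0159 in the authors' deposited table). Ccr7, a chemokine receptor gene, and Cd53, a tetraspanin gene, rose in DP1, Ccr7 to 5.07 FPKM in Hdac3KO DP1, against 1.31 in WT DP1, and Cd53 to 25.5, against 2.77, in the authors' deposited table. CD5 is the marker by which the cells were sorted.

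Fos, Egr1 and Jun are also induced when tissue is taken apart, together with heat shock genes, so these were counted beside them. Of 7 tested heat shock genes, 2 were lower and none higher in Hdac3KO DP2 (median -0.44), where 4.32% of all tested genes were lower. In Hdac3KO DP1 4 were lower and none higher (median -0.82), where 12.9% of all tested genes were lower. Hsph1, a cochaperone gene, fell to 23.7 FPKM in Hdac3KO DP2, against 49.5 in WT DP2 (q = 0.00245), and to 22.1 in Hdac3KO DP1, against 73.6 in WT DP1 (q = 0.000879), in the authors' deposited tables. Hspa1a and Hspa1b, the most inducible genes of the list, are named after their values were seen. They were at 0.0171 and 0.0342 FPKM in Hdac3KO DP2, against 0.0568 and 0.0176 in WT DP2, and at 0 and 0.172 in Hdac3KO DP1, against 0.108 and 0.0920 in WT DP1, in the authors' deposited tables. From DP1 to DP2 in WT, 6 of 7 tested heat shock genes fell and none rose. Of all tested genes there, 16.8% were lower and 5.56% higher. In Hdac3KO 1 of 7 fell and none rose, where 4.65% of all tested genes were lower and 1.78% higher. The part of handling in the lower Fos, Egr1 and Jun values was not tested.

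**Figure D5:**
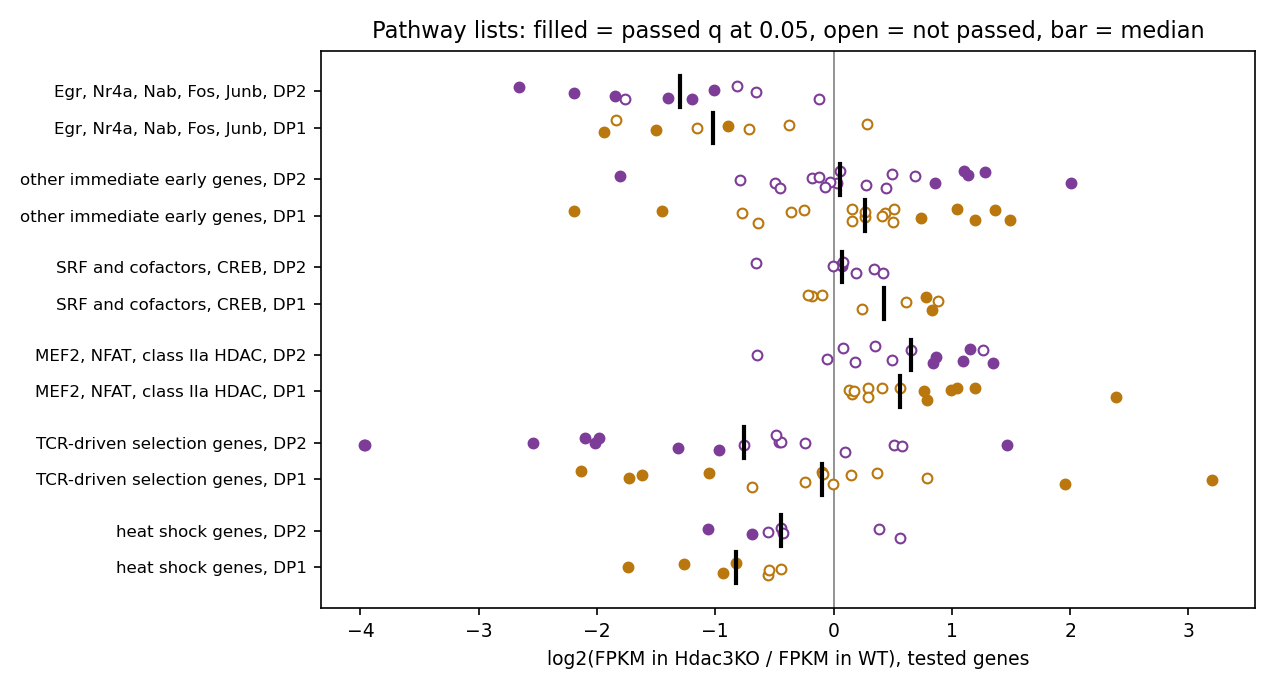
Log2 change of Hdac3KO over WT for the tested genes of the set and of 5 lists, with DP2 above DP1 in each pair, filled points for genes that passed, open points for others and a bar at the median. The set has medians of -1.30 and -1.02, while the list of other immediate early genes has medians of 0.05 and 0.27.

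The genes with changes most like those of Egr1 and Nr4a1 were found by the distance over the 4 log2 changes, among 7232 genes tested in all 4 tables that reached 5 FPKM in at least 1 group of every table. The 4 changes share libraries, and the distance is a description. Nearest to Egr1 were Fmo9 (distance 0.93 on the log2 scale), Micalcl (0.98), Clec2d (1.01), Nab2 (1.09) and A3galt2 (1.23). Clec2d, which encodes a ligand of an inhibitory NK receptor, changed by -1.01 and -1.44 in Hdac3KO over WT, DP2 and DP1, and by 1.77 and 1.27 in DP2 over DP1, Hdac3KO and WT, and passed each time. Nearest to Nr4a1 were Nab2 (1.10), Egr1 (1.29), Cd2 (1.55), Hivep3 (1.62) and Tes (1.73). So Nab2 stood among the 5 nearest genes of both. Egr2, Egr3, Nr4a2, Nr4a3 and Fos did not reach 5 FPKM or were not tested in DP1. They were therefore not compared, and whether they lie nearer than Nab2 is not shown. Cd2, an adhesion receptor gene of T cells, fell in Hdac3KO DP2 (-1.07) and was at -0.32 in DP1, where it did not pass.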

How the data were processed

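Sorted thymocytes in 4 groups of 2 libraries were sequenced after depletion of ribosomal RNA, with a Clontech SMARTer Stranded kit per the labels' protocols. Per the submitters' processing notes the tools included Cuffdiff 2.1.1, TopHat2 2.0.11 and Trimmomatic 0.32, with the mm10 build. Settings, gene annotation and strand handling are not given in the sources used here. The authors deposited 1 FPKM per gene and group in 4 tables, per the file headers, each comparing 2 groups and normalized on its own. A group has different FPKM in its tables, with a median ratio of 0.908 to 1.14. The deposited p-value and q-value come from that comparison, and q was checked to be p adjusted by Benjamini-Hochberg over tested genes. The authors' deposited test statistic, a score, served in an alternative only. The deposited log2 column holds spreadsheet errors and was not used. Log2 fold changes were computed from FPKM without a pseudocount. Per-library values were not used here, so no spread between libraries is given.

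Genes were called at the deposited q of 0.05. A SE is the log2 change over the normal quantile of the deposited p. Differences between comparisons used the root of the summed squared SE, a procedure run on simulated data that took these SE as true. The simulation therefore cannot show an error in the SE themselves, such as that at the smallest deposited p. Promoter windows are 250 bases before the RefSeq start nearest the gene's start in the files, searched on both strands. The 10 genes were named as given, and from each list the called genes with the largest changes and the most abundant genes that did not pass. The members and lists were chosen with earlier results of these data known. Python 3.11.15, scipy 1.17.1, pandas 2.3.3 and statsmodels 0.14.6 were used. Alternatives are given in the closing section.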

Additional observations from a re-analysis of the deposited data

How the results depend on the processing

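Directions of the called members were the same under all alternatives run: q at 0.01 and at 0.10, adjusting p over the 4 tables together, centring each table on its median gene, removal of the trend with transcript length (lowess fraction 0.3), a minimum of 5 FPKM, a pseudocount of 1 and the normal p of the deposited statistic. Of 61 counts of called members under alternatives, 57 were the same as the value reported or within 1.5 times it. Each table was counted in both directions, and the direction with 0 called members stayed at 0. Such counts make up a large part of the 57. By the normal p of the deposited statistic 1 member was lower in Hdac3KO DP1, in place of 3, and 3 in Hdac3KO DP2, in place of 6. For DP2 over DP1 in Hdac3KO, Nab2 and Junb did not pass by that p and Nr4a3 did (q = 0.384, 0.704 and 0.0182). For DP2 over DP1 in WT, Nr4a2 did not pass by it (q = 0.135). At a q of 0.01, 3 members were higher in DP2 than in DP1 in Hdac3KO, in place of 5. With a pseudocount of 1, 8 log2 changes of members moved by more than their SE. Among them, Fos in Hdac3KO over WT was at -1.72 in DP2 and -0.96 in DP1, in place of -2.66 and -1.94. Nr4a3 in DP2 over DP1 in Hdac3KO was at 1.93, in place of 3.52, and in WT at 3.76. Egr2 was at 1.86 in DP2 over DP1 in Hdac3KO, and at -0.55 in Hdac3KO over WT in DP1. With each table centred on its median gene 1 member, Nab1, in place of 0, differed in its Hdac3KO effect between DP2 and DP1. With the length trend removed Junb turned to 0.045 in Hdac3KO DP1, against -0.38. From the stage tables the differences of Egr3 and Nr4a1 turned to 0.024 and 0.014, where none of these values passed. The causes were not tested. Centred on the median gene, 7 and 3 members were lower in Hdac3KO, DP2 and DP1, and 5 and 8 were higher in DP2, Hdac3KO and WT. Low FPKM limits Nr4a2 in every group, Nr4a3 and Egr2 in DP1 and Fos in Hdac3KO. No paired analysis was possible because the tables hold 1 value per group and none per library, and for the same reason no library could be left out in turn.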
